A study of Oryza sativa with 8 samples.

Results

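Among the transcripts of rice seedlings, 48 rows of the deposited gene table were abundant under normal watering and fell at least 4-fold in drought. After rewatering they came back to between 0.5 and 2 times their normal level. They were chosen on the wild type (MH63) libraries alone. A row qualified when its mean reached at least 500 CPM (counts scaled to a library total of 1000000) in normal plants, its drought mean was at most 0.25 times the normal mean, and its recovery mean lay between 0.5 and 2 times the normal mean. The table held 59903 rows, of which 30074 had a count in a wild type library and 215 reached 500 CPM in normal plants. Of these 215 abundant rows, 61 met the drought criterion and 48 met the recovery criterion as well. All 48 were among the 22898 rows that passed the filter on low counts. Drought, recovery and normal values all entered the choice, so the differences between these conditions are given below as descriptions, and no test is read from them.

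The study grew rice seedlings in soil under controlled conditions and took RNA from whole seedlings in 4 groups of 2 samples. Recovery plants were wild type MH63 seedlings that had 14 days of ample water, 15 days without watering and 4 days of renewed watering. Drought plants were wild type MH63 seedlings harvested after the same 15 days, in soil held near 5% relative water content at the end. Normal plants were wild type MH63 seedlings watered throughout and harvested together with the drought plants. The fourth group was drought-treated osbzip23 seedlings, named for OsbZIP23, a bZIP transcription factor that acts in responses to abscisic acid, and its columns are treated separately at the end. No normally watered group of the later recovery harvest was analysed here, so 4 days of further growth and rewatering cannot be told apart in any recovery value. Per the submitters, separate batches of seedlings were treated and a replicate involved at least 30 of them, but the labels tie no batch to a replicate number. The spread between samples below is therefore the spread between 2 pooled samples of many seedlings.

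When soil dries, seedlings close their stomata, accumulate abscisic acid and commonly lower the transcripts that serve photosynthesis, growth and protein synthesis, which include many of the most abundant messages of a green shoot. Rewatering allows leaves that survived to resume these functions. Which functions the 48 rows serve is not known here. Their IDs were found in none of the 39387 entries of a RefSeq gene table of another rice assembly (0 matches), and the count table pairs no ID with a name. The IDs are used only as row labels. Counts were not divided by gene length, so a high CPM means a large share of the counts and not a high number of transcripts. In these bulk samples, a loss of cells that express a gene and a lower level in each cell cannot be told apart.

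Together the 48 rows took 9.99% ± 0.066 of all counts in recovery, 1.07% ± 0.00063 in drought and 7.60% ± 0.079 in normal plants (SD, n = 2 each). The single libraries held 10.04% and 9.94% in recovery, 1.066% and 1.067% in drought, and 7.66% and 7.55% in normal plants. Their summed level was thus 9.37 times as high in recovery as in drought, 7.13 times as low in drought as in normal plants, and 1.31 times as high in recovery as in normal plants. The libraries behind these shares held 37400784 to 42894245 counts. The fewest counts of any member in a drought library were 267, with a median of 5878, so no member rested on few counts in any condition.

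**Figure D1:**
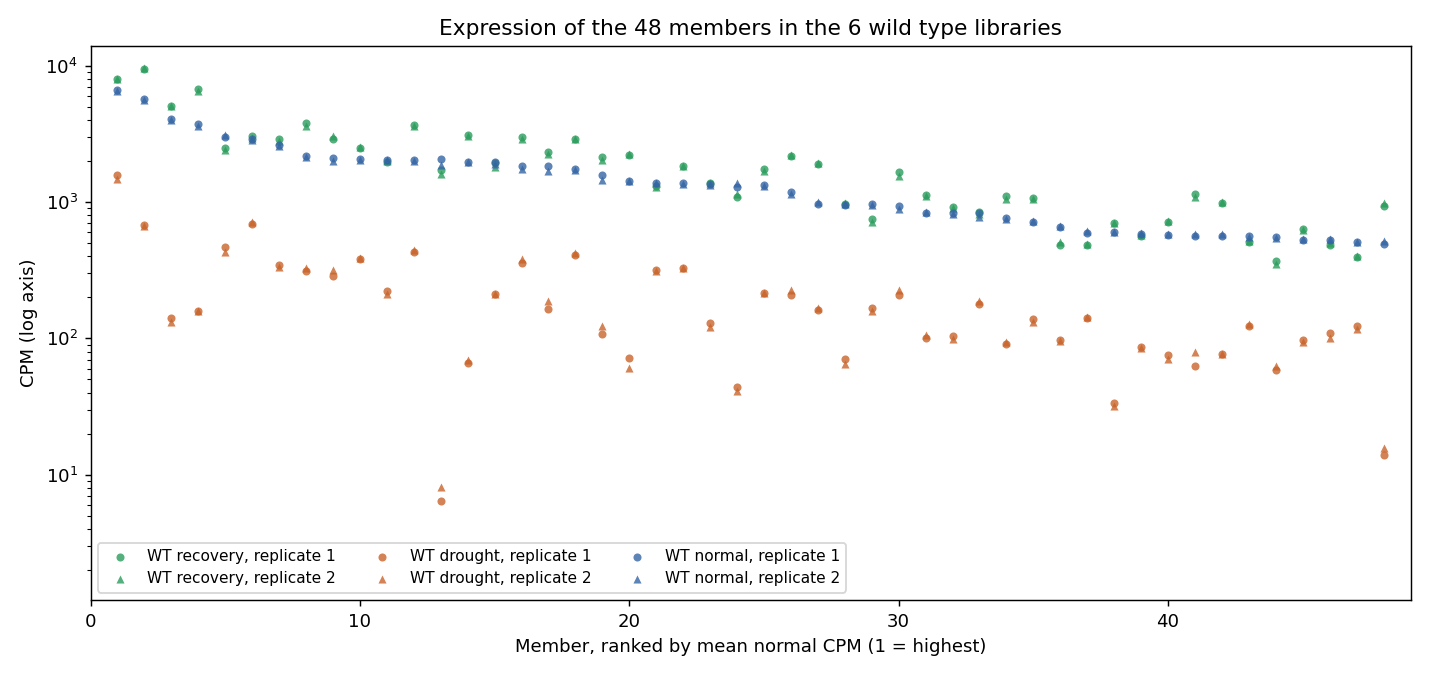
CPM of each of the 48 members (x axis, ranked by mean normal CPM) in the 6 wild type libraries, on a log axis. Circles are replicate 1 and triangles replicate 2. Drought values lie below the normal values for every member, as the choice of rows requires, while recovery values lie on both sides of normal.

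The members held about as much of the net drop in the share of abundant rows as all the others combined. This split is a description, because the members were chosen for their fall. Some of the other abundant rows rose in drought, with a log2 ratio over normal of up to 3.33, and offset part of the drop. The 215 abundant rows held 29.6% ± 0.15 of the counts in recovery, 11.6% ± 0.037 in drought and 24.6% ± 0.22 in normal plants (SD, n = 2 each). Their share was thus on balance 12.98 percentage points lower in drought than in normal plants. Of this net drop, 6.54 points, or 50.4%, were those of the 48 members. The 154 abundant rows that did not fall 4-fold held 15.5% ± 0.048 in recovery, 10.4% ± 0.033 in drought and 15.4% ± 0.13 in normal plants. Lower drought levels were common among abundant rows at large, and 134 of the 215 were at or below 0.5 times normal. The median log2 ratio of drought over normal was -2.77 over the members, -1.08 over the other 167 abundant rows and -0.06 over 22263 tested rows with counts in both groups.

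**Figure D2:**
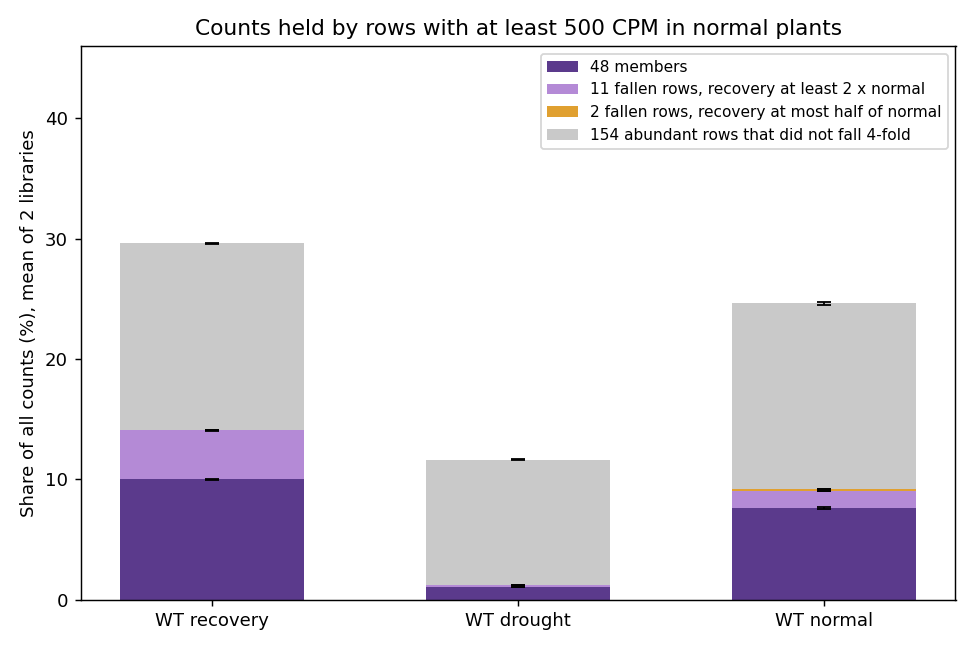
Share of all counts (y axis, mean of 2 libraries) held by the 215 rows with at least 500 CPM in normal plants, split by their course. Error bars are the SD of each segment over 2 libraries. The 48 members shrink to 1.07% in drought and take 9.99% in recovery, above their 7.60% in normal plants.

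A few members carried much of this share. The first 4 by normal CPM held 29.3% ± 0.15 of the members' counts in recovery, 23.3% ± 0.80 in drought and 26.3% ± 0.031 in normal plants, and the first 8 held 41.4% ± 0.12 in recovery, 40.4% ± 0.86 in drought and 40.4% ± 0.15 in normal plants (SD, n = 2 each). Members are called below by their rank in normal CPM. Member 1 had 8025 and 8034 CPM in recovery, 1575 and 1471 CPM in drought and 6636 and 6559 CPM in normal plants. Its drought level was 23.1% of normal and its recovery level 1.22 times normal. Member 2 had 9501 and 9595 CPM in recovery, 675 and 669 CPM in drought and 5715 and 5606 CPM in normal plants. It stood 8.42 times lower in drought than in normal plants, and in recovery it took the largest share of the counts of any member.

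Members 3 and 4 fell further than members 1 and 2 and still returned. Member 3 had 5039 and 5058 CPM in recovery, 141 and 133 CPM in drought and 4092 and 4039 CPM in normal plants. Member 4 had 6723 and 6531 CPM in recovery, 158 and 158 CPM in drought and 3714 and 3626 CPM in normal plants. Their drought levels were 3.36% and 4.31% of normal, and their recovery levels 1.24 and 1.81 times normal. In all of the first 4 members, both recovery libraries were above both normal libraries.

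Members 5 to 8 fell less than members 3 and 4 and came back by differing amounts. Member 5 had 2516 and 2402 CPM in recovery, 468 and 433 CPM in drought and 3003 and 3129.6 CPM in normal plants. It is the only one of the first 8 whose recovery libraries were both below the normal libraries, at 0.802 times normal. Member 6 had 3071 and 2973 CPM in recovery, 695 and 716 CPM in drought and 2890.0 and 2854 CPM in normal plants. At 24.6% of normal in drought it was the member closest to the 0.25 limit. Member 7 had 2898 and 2791 CPM in recovery, 346 and 335 CPM in drought and 2615 and 2591 CPM in normal plants, and its recovery level was 1.09 times normal. Member 8 had 3819 and 3648 CPM in recovery, 310.1 and 328 CPM in drought and 2189 and 2161 CPM in normal plants. Its recovery level was 1.72 times normal, from a drought level of 14.7%.

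The depth of the fall varied widely. The drought level was between 0.367% and 24.6% of normal, with a median of 14.6%, which is a fold of 4.07 to 272.3 with a median of 6.84. In 28 members the drought mean was 4 to 8 times lower than normal, in 12 it was 8 to 16 times lower, in 6 it was 16 to 32 times lower, and in 2 it was lower still. The 28 members with the mildest fall held 5.37% ± 0.035 of the counts in recovery, 0.812% ± 0.00040 in drought and 4.17% ± 0.028 in normal plants. The 6 members that fell 16 to 32 times held 1.88% ± 0.0095 in recovery, 0.0504% ± 0.0015 in drought and 1.31% ± 0.0056 in normal plants (SD, n = 2 each). Both ends of this range hold members of high and of low normal CPM. The median fold was 6.84 over 22 members with 500 to 1000 CPM in normal plants, 9.61 over 14 members with 1000 to 2000 CPM, and 6.81 over 12 members above that.

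One row stood apart in the depth of its fall. Member 13, labelled OsMH_03G0413500, had 1719 and 1617 CPM in recovery, 6.40 and 8.07 CPM in drought and 2064 and 1876 CPM in normal plants. Its drought level was 0.367% of normal, or 272 times lower, and its recovery level was 231 times its drought level. The drought libraries held 267 and 346 counts of it, with a coefficient of variation of 16.2%, among the widest of the members. No other member fell more than 33.8-fold. Member 48, labelled OsMH_01G0681000 and the last by normal CPM, was the second deepest, with 934 and 993 CPM in recovery, 13.9 and 15.8 CPM in drought and 492 and 514 CPM in normal plants. It returned to 1.92 times normal by library totals and 2.18 times with TMM, a scaling that sets the bulk of rows level between libraries. Member 13 returned to 0.847 times normal by library totals and 0.966 times with TMM, and was called neither higher nor lower than normal by the edgeR fit described below.

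Behind them came member 24 and then members 3, 14 and 4. Member 24 had 1096 and 1145 CPM in recovery, 43.7 and 41.0 CPM in drought and 1291 and 1383 CPM in normal plants. It was 31.6 times lower in drought and returned to 0.838 times normal. Member 14 had 3122 and 3054 CPM in recovery, 66.3 and 69.8 CPM in drought and 1972 and 1962 CPM in normal plants. It was 28.9 times lower in drought and returned to 1.57 times normal. Among the 6 members with the deepest falls, recovery levels thus ran from 0.838 to 1.92 times normal, which spans most of the range seen over all 48.

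Return to the normal level was seldom exact. The recovery mean was between 0.651 and 1.95 times normal, with a median of 1.23, where the rule allowed 0.5 to 2. In 4 members it was under 0.8 times normal, in 22 it was 0.8 to 1.25 times, in 8 it was 1.25 to 1.5 times, and in 14 it was 1.5 times normal or more. The 14 members with the highest return held 4.35% ± 0.027 of the counts in recovery, 0.327% ± 0.0085 in drought and 2.52% ± 0.029 in normal plants. The 22 members closest to normal held 4.01% ± 0.026 in recovery, 0.548% ± 0.013 in drought and 3.78% ± 0.020 in normal plants (SD, n = 2 each). The excess of the members' summed level in recovery lay mostly in the 14 rows at 1.5 times normal or more. These rows were grouped by the same ratio that makes up the excess, so this is a description.

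**Figure D3:**
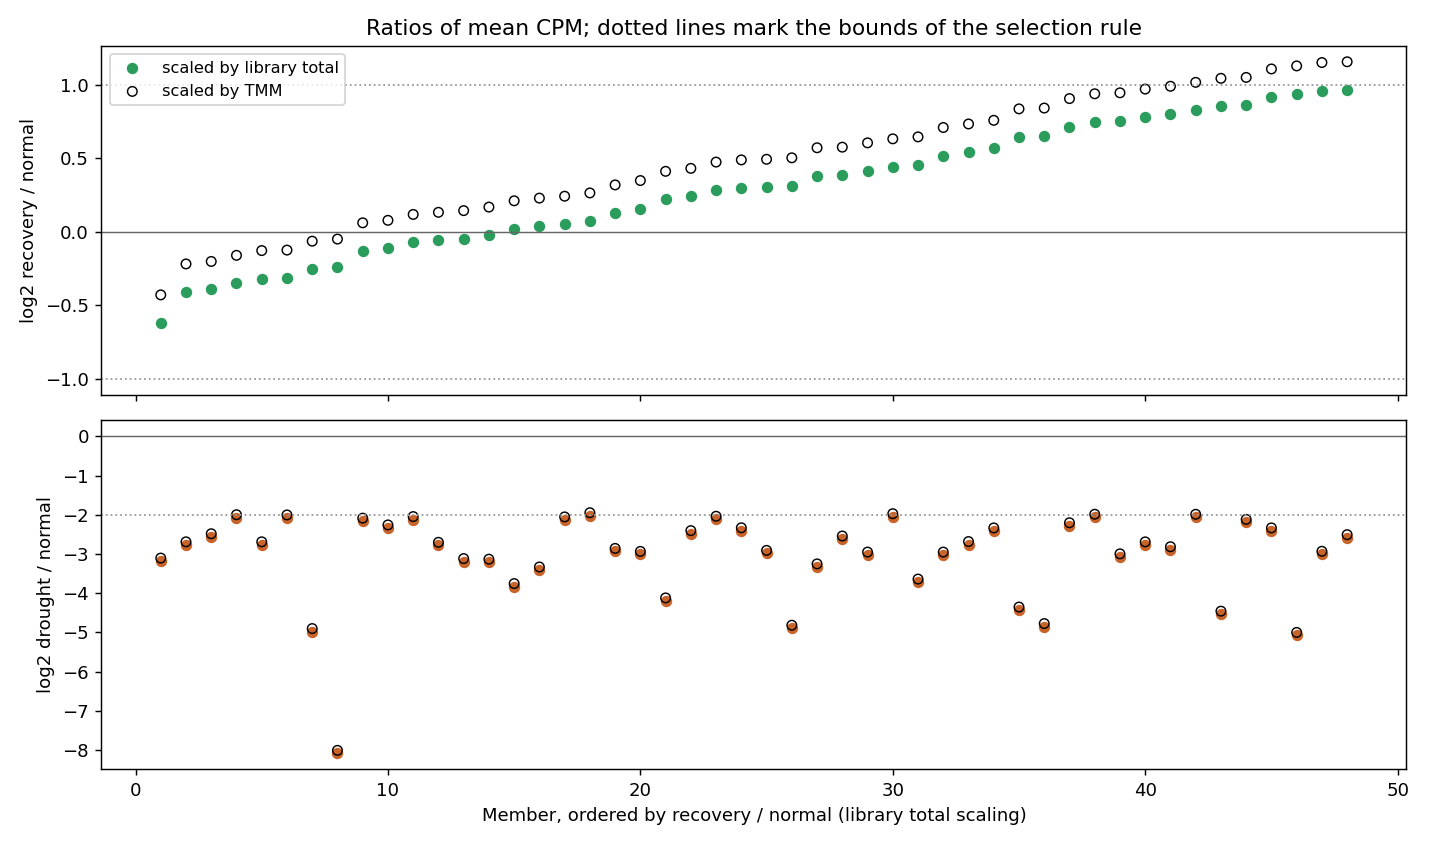
Log2 ratio of mean CPM for each of the 48 members, recovery over normal (upper panel) and drought over normal (lower panel), with members in the same order in both. Filled points use library totals and open points TMM scaling, which raises recovery over normal by 0.19 for every member and drought over normal by 0.08. The single point near -8 in the lower panel is member 13.

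Libraries of recovery and normal plants were separate for nearly all members. Scaled by library totals, both recovery libraries were above both normal libraries in 33 members and below them in 13, while 2 members, numbers 15 and 33, overlapped. Of all 22898 tested rows, 21.6% had both recovery libraries above both normal libraries and 51.0% had both below. Both drought libraries were below both normal libraries in all 48 members, as chosen, and in 46.2% of tested rows. The median log2 ratio of recovery over normal was 0.30 over the members, -0.11 over the other abundant rows and -0.19 over 22657 tested rows with counts in both groups. TMM scaling moved this median by 0.19, and the members' median on that scale was 0.49.

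Direction relative to normal depended on this scaling for 6 members, whose recovery mean was 0.914 to 0.985 times normal by library totals and above normal with TMM. With library totals 34 members were above and 14 below normal, and with TMM 40 were above and 8 below. In an edgeR quasi-likelihood fit of the 6 wild type libraries with TMM, at an adjusted p under 0.05, 38 members were called higher and 6 lower in recovery than in normal plants. Over all tested rows, 18.1% were called higher and 16.7% lower, and over the other 167 abundant rows 46.7% higher and 26.9% lower. Of the 38, 4 were below normal by library totals. Scaled by library totals, the same fit called 30 members higher and 9 lower, where 11.6% of all tested rows were called higher and 32.1% lower. With the osbzip23 columns in the fit, 28 members were called higher and 0 lower, where 5.65% of 33074 tested rows were called higher and 4.12% lower. The rows of those columns do not correspond to the wild type rows, as described below, so that fit is no check on the calls. When the log2 fold change also had to reach 1 in size, 7 members were called higher and 0 lower, where 4.59% of all tested rows were called higher and 2.38% lower. The 6 lower calls became 3 without normal replicate 1, normal replicate 2 or recovery replicate 2. All 48 members were called lower in drought than in normal plants, where 37.3% of tested rows were, and higher in recovery than in drought, where 38.2% were. Most of the other 167 abundant rows had the same calls, 80.8% lower in drought than in normal plants and 82.0% higher in recovery than in drought. These comparisons share libraries with the choice of members, and the counts add nothing to it.

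The 4 members that came back highest all ranked 26 or lower by normal CPM. Member 27, labelled OsMH_10G0341900, had 1902 and 1921 CPM in recovery, 160.4 and 166 CPM in drought and 962 and 996 CPM in normal plants, a recovery level of 1.95 times normal. Member 41, labelled OsMH_06G0448200, had 1139.6 and 1099 CPM in recovery, 62.9 and 80.0 CPM in drought and 563 and 588 CPM in normal plants, at 1.95 times normal. Member 48, described above, stood at 1.92 times normal. Member 26 had 2176 and 2223 CPM in recovery, 209.5 and 228 CPM in drought and 1179 and 1151 CPM in normal plants, at 1.89 times normal. In each of these 4 the recovery libraries were both above the normal libraries. With TMM their ratios became 2.23, 2.22, 2.18 and 2.15, beyond the upper bound of 2 in all of them.

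Members that came back least remained below normal under both scalings. Member 44 had 369 and 352 CPM in recovery, 59.0 and 63.0 CPM in drought and 559 and 549 CPM in normal plants. Its recovery level was 0.651 times normal by library totals and 0.743 times with TMM. Member 36 had 486 and 509.7 CPM in recovery, 97.7 and 96.4 CPM in drought and 653 and 669 CPM in normal plants. Member 29 had 749.9 and 717 CPM in recovery, 166 and 160.0 CPM in drought and 974 and 952 CPM in normal plants. Members 36 and 29 thus returned to 0.753 and 0.762 times normal, or 0.859 and 0.869 times with TMM. Member 47 had 396 and 401 CPM in recovery, 123 and 118 CPM in drought and 506 and 509 CPM in normal plants, at 0.784 and 0.895 times normal by library totals and with TMM. All 4 had under 1000 CPM in normal plants, and in each of them both recovery libraries were below both normal libraries.

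Rows were chosen by bounds, and the values on either side of each bound were as follows. At the bound on normal CPM, members 48 and 47 had means of 503 and 508 CPM, and the first rows left out had 497 and 496 CPM. At the drought bound, members 6 and 22 stood at 24.6% and 24.2% of normal, and the first rows left out at 25.04% and 25.06%. At the upper recovery bound, members 27 and 41 stood at 1.95 and 1.95 times normal, and the first rows left out at 2.00 and 2.05. At the lower recovery bound the gap was wider, with members 44 and 36 at 0.651 and 0.753 times normal and the only 2 fallen abundant rows outside it at 0.397 and 0.228. The other 3 bounds run through a range of values without such a gap.

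Fallen abundant rows that were left out for their recovery were nearly all above the upper bound, 11 against 2. The 11 rows held 4.08% ± 0.036 of the counts in recovery, 0.120% ± 0.0025 in drought and 1.40% ± 0.012 in normal plants (SD, n = 2 each). Their median CPM was 3380 in recovery, 73.3 in drought and 1033 in normal plants, where the medians over the 48 members were 1641 in recovery, 139.8 in drought and 1327 in normal plants. All 61 fallen abundant rows together held 14.1% ± 0.10 in recovery, 1.19% ± 0.0035 in drought and 9.17% ± 0.086 in normal plants.

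Replicate spread was not used in the choice. Over the members, the median coefficient of variation of the 2 libraries was 1.83% in recovery, 3.52% in drought and 1.5% in normal plants. In the other 167 abundant rows it was 1.49% in recovery, 3.03% in drought and 1.83% in normal plants. The relative SD expected from counting noise alone is the reciprocal of the square root of the mean count. Its median over the members was 0.397% in recovery, 1.30% in drought and 0.437% in normal plants. Under that noise the median coefficient of variation of 2 libraries would lie below these values. Every member was under 5% in recovery, 36 were in drought and 45 were in normal plants. In all, 3 members exceeded 10% in drought, numbers 41, 13 and 20, at 16.9%, 16.2% and 12.1%.

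**Figure D4:**
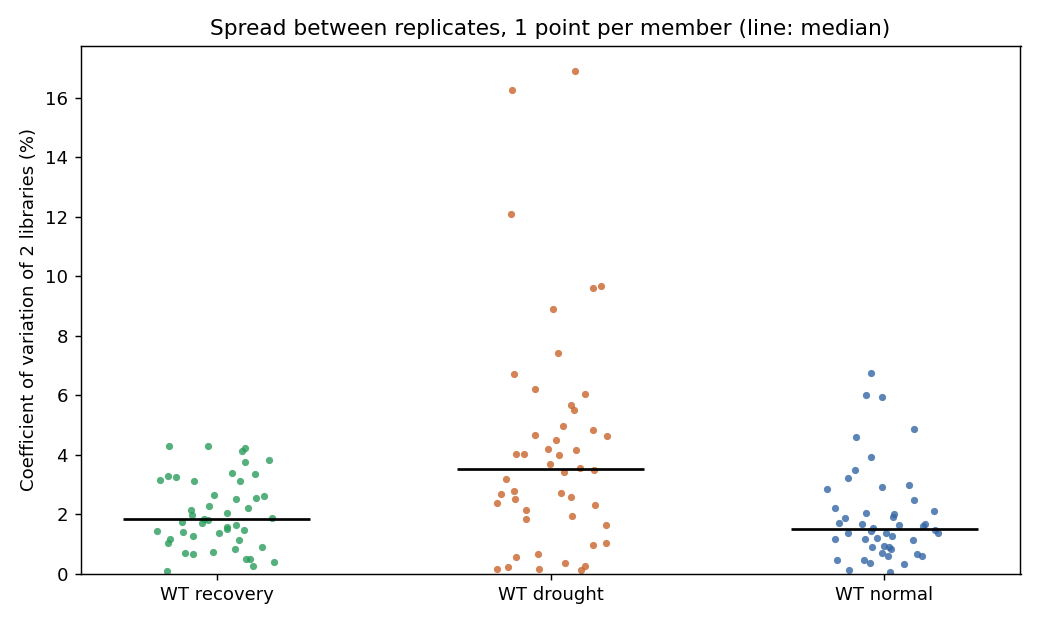
Coefficient of variation of the 2 libraries of each wild type group (y axis, percent), 1 point per member, with the median as a line. Medians are 1.83% in recovery, 3.52% in drought and 1.5% in normal plants, and the highest point, in drought, is member 41 at 16.9%.

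When the rule was applied to the replicate 1 libraries alone it chose 56 rows, and applied to the replicate 2 libraries alone it chose 48. They shared 44 rows, which is 78.6% of the replicate 1 choice and 91.7% of the replicate 2 choice, and all 44 are members. Of the 48 members, 46 met the rule in replicate 1 and 46 in replicate 2.

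Positions in the table were not used in the choice either. The row labels of the members name 10 chromosomes. Chromosome 11 and 12 labels have no member, but only 2 abundant rows carry the first and 0 the second. Wild type drought replicate 1 has no counts beyond table row 40897 of 59903. The absence of these 2 labels is therefore not read as a trait of the members. Of the 48 members, 9 carry a chromosome 10 label, out of 20 abundant rows with that label. Over all labels, 48 of the 215 abundant rows are members. These 9 members lie between table rows 39120 and 40170. The ends of this stretch are the first and last of the 9 members, and it was singled out after its values were seen. It holds 463 tested rows and 15 abundant rows, and each of the 9 abundant rows in it that fell 4-fold is a member. The 9 rows held 3.50% ± 0.0043 of all counts in recovery, 0.213% ± 0.0031 in drought and 2.29% ± 0.024 in normal plants (SD, n = 2 each). They include members 2, 3 and 4. Members 2 and 3 occupy adjacent rows, the only such pair, and member 27 stands 4 rows further on. Reads shared between similar neighbouring genes could have been split among such rows, and the counting rule is not given in the sources used here. A place in the table is not evidence of a place in the genome, because the labels were not checked against any gene.

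The osbzip23 columns were not compared with wild type. Over the first 40897 rows of the table (beyond them, wild type drought replicate 1 has no counts), log2(CPM + 1) of the osbzip23 and wild type libraries correlated at r = -0.0130 to -0.0097 across rows. Wild type libraries correlated with each other at r = 0.906 to 0.998. The rows of the 2 genotypes thus do not correspond, and neither correlation comes from independent points. In the osbzip23 drought libraries the 48 rows held 0.0455% ± 0.0022 of the counts, against 1.07% ± 0.00063 in wild type drought (SD, n = 2 each), and 19 of them held 0 counts in both osbzip23 libraries. These are values of rows, not of genes, and no effect of the genotype is read from them.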

How the data were processed

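Whole-number counts per gene ID for 8 rice seedling libraries were taken as the authors deposited them, with 1 column per sample and no normalization, per the file headers. Libraries were Illumina TruSeq RNA libraries, per the labels' protocols. Tools named in the submitters' processing notes, with no role given, are StringTie 2.1.7, STAR 2.7.10a and fastp 0.23.0. The genome build, annotation, strand setting and treatment of shared reads are not given in the sources used here.

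CPM is the deposited count over the column total, times 1000000, with the SD of 2 libraries. The members, lists and bins were chosen with earlier results of these data known. Values of every library are given for the 8 members with the highest normal CPM, the 6 with the lowest drought over normal ratio, and the 4 with the highest and the 4 with the lowest recovery over normal ratio. Means are given for the 2 rows on each side of each bound. IDs are printed for the 2 members with the lowest drought over normal ratio and the 2 with the highest recovery over normal ratio.

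Called rows come from edgeR 4.0.16 in R 4.3.3 (TMM, filterByExpr by group, two-sided quasi-likelihood F-test, Benjamini-Hochberg adjustment within each contrast) over 22898 rows in the 6 wild type libraries, with 3 residual degrees of freedom. The code was tested on simulated data. Replicate libraries were not copies of each other, since their counts had a chi-square of 4.48, 7.25 and 4.91 per degree of freedom in recovery, drought and normal plants. Alternatives were other scalings, DESeq2 1.42.0, limma-voom (limma 3.58.1), no count filter, all 8 libraries, the 4 libraries compared, a replicate block, a minimum fold, each library left out, and other bounds of the rule.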

Additional observations from a re-analysis of the deposited data

Results flagged for a closer look

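In the osbzip23 drought columns, which entered no comparison, 1 of the 48 member rows had a higher mean than in the wild type drought columns. It is member 42, with 167 and 185 CPM there and 77.2 and 77.0 CPM in the wild type drought libraries. The rows of the 2 genotypes do not correspond, so this difference was not tested and is not a value of 1 gene. Groups of 2 libraries are too small for a check of single outlying samples.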

How the results depend on the processing

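All 48 members were called lower in drought than in normal plants and higher in recovery than in drought under every setting run. Between recovery and normal plants, 38 members were called higher and 6 lower. A minimum absolute log2 fold change of 1 left 7 higher and 0 lower, where 4.59% of all tested rows were called higher and 2.38% lower. A fit of all 8 libraries, whose spread includes the osbzip23 columns, gave 28 members higher and 0 lower, where 5.65% of its rows were called higher and 4.12% lower. It joins rows that do not correspond between the 2 genotypes, so it is no check on the calls. Leaving out 1 library gave 35 to 38 higher and 3 to 6 lower, with 3 lower without normal replicate 1, normal replicate 2 or recovery replicate 2. With a replicate block the counts were 38 higher and 4 lower, and 48 in both other comparisons. Deviations from the group mean of samples with the same number correlated at -0.023 to 0.015 across rows. Such low correlations do not show whether a number marks a shared batch of seedlings, which the labels do not tell. The block changed no comparison by over 1.5 times.

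The choice of members depended on scaling and bounds. With TMM or median-of-ratios scaling 37 rows met the rule, all of them members. Of the 11 lost with TMM, 7 passed 2 times normal in recovery, 5 were above 0.25 times normal in drought and 2 were under 500 CPM, 3 of them for more than 1 reason. A minimum of 250 CPM gave 111 rows and one of 1000 CPM 26. A drought bound of a 3-fold fall gave 84 rows and one of 8-fold 20, and a recovery window of 1.5-fold gave 33. Leaving out 1 library gave 48 to 55 rows, which kept 47 or 48 of the members.

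For the fixed members, TMM and median-of-ratios scaling gave a median log2 drought over normal of -2.70 and -2.71 (-2.77 by library totals), recovery over normal of 0.49 and 0.51 (0.30), and recovery over drought of 3.27 and 3.31 (3.16). The summed share under these scalings was 10.72% and 10.85% in recovery, 1.057% and 1.046% in drought, and 7.15% and 7.14% in normal plants. Leaving out 1 library gave medians of -2.82 to -2.77 for drought over normal, 0.29 to 0.31 for recovery over normal and 3.13 to 3.18 for recovery over drought, and shares of 9.94% to 10.04%, 1.066% to 1.067% and 7.55% to 7.66% in recovery, drought and normal plants. The replicate spread moved by under 1.5 times with both scalings, an alternative chosen after seeing the data. The cause of these shifts was not tested beyond the scaling itself. With 2 samples a group, no spread between batches of plants can be given.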
